A study of Mus musculus with 8 samples.

Results

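Pan-glutamatergic cortical neuron genes are described here in mouse medial prefrontal cortex (mPFC). The list holds 9 genes: Slc17a7, Slc17a6, Camk2a, Camk2b, Neurod2, Neurod6, Tbr1, Nrgn and Chn1. They were chosen by name, and each was read from its brightest probe set, by mean over the 8 arrays, among those annotated with 1 gene symbol. All 9 were found among the 22180 named genes, and all 9 passed the filter on low values that left 11712 genes for testing.

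Mice with a Cre-dependent, GFP-tagged ribosome received CAV2-Cre, a canine adenovirus that carries Cre recombinase back from axon terminals, in NAC or in VTA, and the mPFC was then collected. The 4 groups held 2 arrays each. The NAC and VTA pull-downs were RNA bound to tagged ribosomes that GFP-trap, a GFP-binding reagent, had captured, and the NAC and VTA inputs were RNA of the same kinds of sample with no capture. All 4 groups came from virus-injected mice that carried the tag, so every group shares both. No label used here gives the strain, age or sex of the mice, the promoter behind the tag or any pooling, and none says that the paired arrays of a group are different animals. The p-values therefore measure the spread between these arrays, which may be technical.

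Values are log2 levels per probe set as deposited. Arrays correlated at 0.981 to 0.991 within groups (4 pairs) and at 0.973 to 0.988 between groups (24 pairs). The array medians over named genes lay between 5.86 and 5.98. All 9 genes lay above the array medians on every array. In tissue RNA, fewer cells of a type and less RNA per cell cannot be told apart.

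Excitatory neurons of the cortex load glutamate into synaptic vesicles through vesicular transporters and send the long axons that leave the area. Their identity is set in development by a cascade of transcription factors, of which Tbr1, Neurod2 and Neurod6 act in postmitotic cells. Their spines hold calcium/calmodulin-dependent kinase II (CaMKII), a kinase of synaptic plasticity, and neurogranin, which binds calmodulin when calcium is low.

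Setting pull-down against input addressed whether RNA on tagged ribosomes held more or less of these transcripts than the tissue. The genes did not move as 1 group. Averaged over both targets, 2 of the 9 rose (Nrgn and Neurod2), 4 fell (Slc17a6, Chn1, Tbr1 and Camk2a) and 3 did not pass (Slc17a7, Camk2b and Neurod6). Called changes were small, from 1.14-fold for Neurod2 to 1.35-fold for Slc17a6. Among all tested genes 41.5% were called in this comparison, 9.6% higher and 32% lower. The median of the 9 genes was -0.16, beside -0.11 over all tested genes. This shift of all genes depends on the scale of the arrays. With each array centred on its median it was 0.03, and the 9 genes then split into 3 higher (Nrgn, Neurod2 and Neurod6), 1 lower (Slc17a6) and 5 not called. With quantile normalization the split was again 2 higher and 4 lower. The shares of all tested genes given above belong to the deposited scale. None are given here for the other scalings, so the splits under those have no share beside them.

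**Figure D1:**
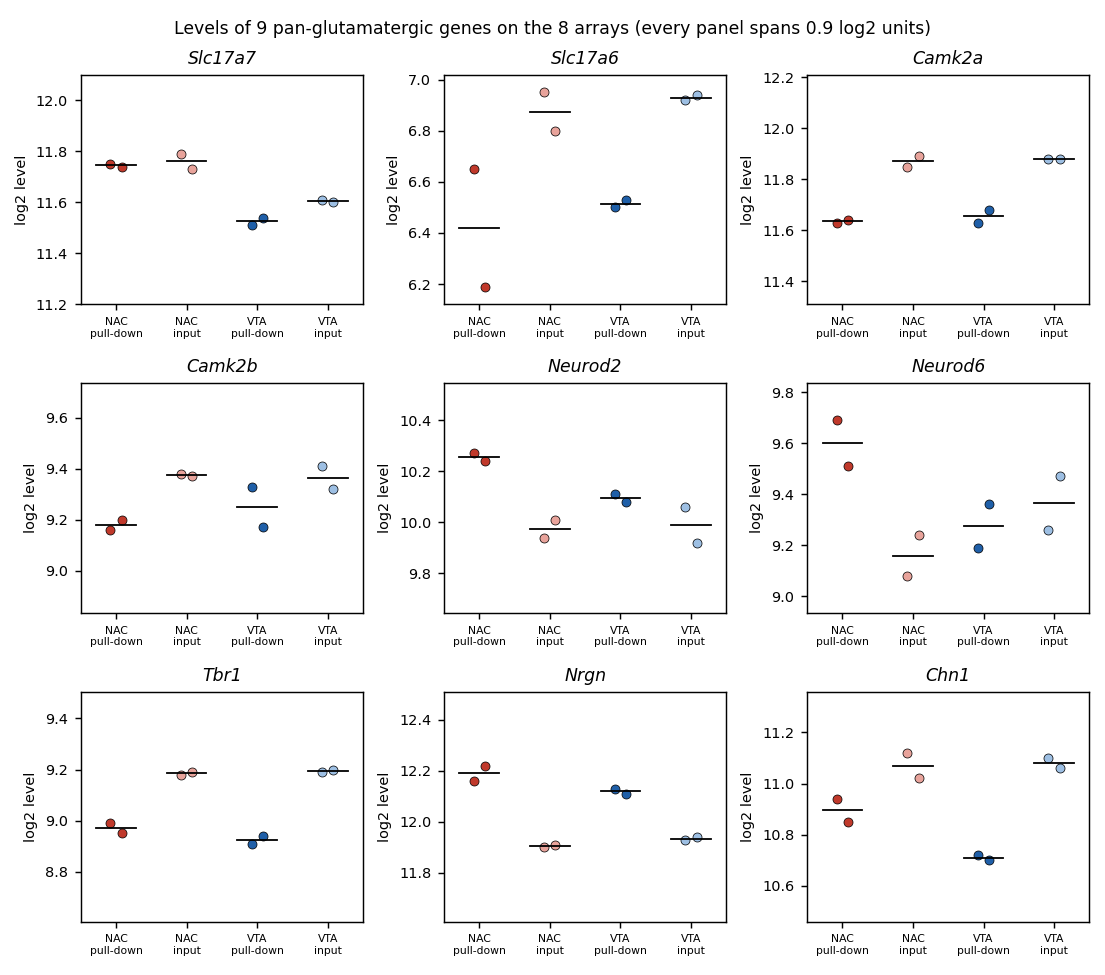
Log2 level of each of the 9 genes on the 8 arrays, with the arrays of a group as points and their mean as a line; every panel spans the same range. The pull-downs of Nrgn and Neurod2 all lie above the inputs, and those of Slc17a6, Camk2a, Tbr1 and Chn1 all lie below them.

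Among the vesicular glutamate transporters, Slc17a7 codes for VGLUT1, the main transporter of cortical excitatory neurons. Its level was 11.75 and 11.74 in NAC pull-downs and 11.51 and 11.54 in VTA pull-downs, against 11.79 and 11.73 in NAC inputs and 11.61 and 11.60 in VTA inputs. Pull-downs and inputs overlapped, and the lower values were those of the VTA arrays in both kinds of RNA. The averaged difference was -0.05 (SE 0.06, 95% interval -0.19 to 0.09, n = 4 pull-downs and 4 inputs, limma adjusted p = 0.56). With each array centred it was 0.09 and also missed the threshold (limma adjusted p = 0.26).

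Slc17a6 codes for VGLUT2, which in the adult forebrain is the transporter of thalamic neurons and is sparse in cortex. It read 6.65 and 6.19 in NAC pull-downs and 6.50 and 6.53 in VTA pull-downs, against 6.95 and 6.80 in NAC inputs and 6.92 and 6.94 in VTA inputs. All 4 pull-downs lay below all 4 inputs, and the NAC pull-downs were the most spread pair of any gene here. Slc17a6 was also the dimmest of the 9 genes, near the level of the filter. Its group means lay 0.50 (NAC pull-down) to 0.97 (VTA input) above the array medians. It fell by 0.44 (SE 0.10, n = 4 pull-downs and 4 inputs, limma adjusted p = 0.0070), the largest averaged difference of the 9 genes, and 8.6% of tested genes had a lower value. The fall was still called with each array centred (-0.30, limma adjusted p = 0.022) and with quantile normalization (-0.38, limma adjusted p = 0.014).

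The CaMKII genes code for the alpha and beta subunits of the kinase. Camk2a had 11.63 and 11.64 in NAC pull-downs and 11.63 and 11.68 in VTA pull-downs, against 11.85 and 11.89 in NAC inputs and 11.88 and 11.88 in VTA inputs. The pull-downs lay below the inputs with a gap wider than the spread within either. The fall of 0.23 (SE 0.06, n = 4 pull-downs and 4 inputs) passed (limma adjusted p = 0.015), but with each array centred the value was -0.09 and did not (limma adjusted p = 0.25). Camk2b had 9.16 and 9.20 in NAC pull-downs and 9.33 and 9.17 in VTA pull-downs, against 9.38 and 9.37 in NAC inputs and 9.41 and 9.32 in VTA inputs. The first VTA pull-down reached into the range of the inputs. Its difference was -0.16 (95% interval -0.31 to -0.01, limma adjusted p = 0.081).

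Nrgn, which codes for neurogranin, went the other way. Its level was 12.16 and 12.22 in NAC pull-downs and 12.13 and 12.11 in VTA pull-downs, against 11.90 and 11.91 in NAC inputs and 11.93 and 11.94 in VTA inputs. The 4 pull-downs all exceeded the 4 inputs. It rose by 0.24 (SE 0.06, n = 4 pull-downs and 4 inputs, limma adjusted p = 0.013), a value above that of 91.1% of tested genes. It was higher under both other scalings, at 0.37 with each array centred (limma adjusted p = 0.0030) and at 0.17 with quantile normalization (limma adjusted p = 0.036). Without the second NAC pull-down its value was 0.22 and the call was lost (limma adjusted p = 0.050).

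Among the transcription factors, Neurod2 and Neurod6 are basic helix-loop-helix genes of postmitotic excitatory neurons. Neurod2 had 10.27 and 10.24 in NAC pull-downs and 10.11 and 10.08 in VTA pull-downs, against 9.94 and 10.01 in NAC inputs and 10.06 and 9.92 in VTA inputs. Its pull-downs all exceeded its inputs, narrowly with VTA, where the lower pull-down and the higher input differed by less than the inputs did among themselves. It rose by 0.19 (SE 0.07, n = 4 pull-downs and 4 inputs, limma adjusted p = 0.043). The call was kept with each array centred (0.32, limma adjusted p = 0.0059) but was lost when any 1 of the 8 arrays was left out, where the value ran between 0.15 and 0.22 (limma adjusted p of 0.053 to 0.13). Neurod6 had 9.69 and 9.51 in NAC pull-downs and 9.19 and 9.36 in VTA pull-downs, against 9.08 and 9.24 in NAC inputs and 9.26 and 9.47 in VTA inputs. Only the NAC pull-downs stood above every input. Averaged over both targets the difference was 0.18 (SE 0.08, limma adjusted p = 0.11), and with each array centred it was 0.31 and passed (limma adjusted p = 0.013).

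Tbr1, a T-box gene that is strongest in layer 6 and opposes the subcerebral fate of deep-layer neurons, had 8.99 and 8.95 in NAC pull-downs and 8.91 and 8.94 in VTA pull-downs. Its inputs were at 9.18 and 9.19 with NAC and at 9.19 and 9.20 with VTA. The ranges did not overlap, and the inputs were nearly identical. Tbr1 fell by 0.24 (SE 0.06, n = 4 pull-downs and 4 inputs, limma adjusted p = 0.012). With each array centred its value was -0.11 and did not pass (limma adjusted p = 0.18), while with quantile normalization it was -0.18 and did (limma adjusted p = 0.032).

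Chn1 codes for alpha-chimaerin, a Rac-inactivating protein that acts downstream of ephrin receptors in axon guidance. Its brighter probe set read 10.94 and 10.85 in NAC pull-downs and 10.72 and 10.70 in VTA pull-downs, against 11.12 and 11.02 in NAC inputs and 11.10 and 11.06 in VTA inputs. The pull-downs were lower throughout, those with VTA by the wider gap. This probe set fell by 0.27 (SE 0.06, n = 4 pull-downs and 4 inputs, limma adjusted p = 0.0086), but its value was -0.14 with each array centred and did not pass (limma adjusted p = 0.094). The second Chn1 probe set ran the opposite way. It had 7.84 and 7.63 in NAC pull-downs and 7.67 and 7.63 in VTA pull-downs, against 7.49 and 7.72 in NAC inputs and 7.22 and 7.49 in VTA inputs. With it the difference was 0.21 (95% interval 0.01 to 0.41, limma adjusted p = 0.084), and the mean of both probe sets gave -0.03. The direction given for Chn1 therefore holds for 1 of its 2 probe sets, and the annotation used here does not say which transcripts each one reads.

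Of the 9 genes, 2 had all pull-downs above all inputs and 4 had all below, and the same 6 were called. Over all tested genes 32.7% did not overlap, 7.91% with all pull-downs above and 24.8% with all below.

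RefSeq sequence (GRCm38.p6) was taken for the 250 bases before each annotated start, and 8 of the 9 genes matched 10 such windows. Windows are shown for Nrgn and Neurod2, whose pull-downs all lay above the inputs, and for Tbr1, whose pull-downs all lay below them. Capitals mark 3 motifs searched on both strands: the E-box letters CAGATG and CAGCTG that basic helix-loop-helix factors of the NeuroD kind can bind, and the T-box core GGTGTG. None of the matches shown overlaps another. The windows lie at chr9:37552746-37552995 (minus strand) for Nrgn, chr11:98329646-98329895 (minus strand) for Neurod2 and chr2:61804203-61804452 (plus strand) for Tbr1.
Nrgn: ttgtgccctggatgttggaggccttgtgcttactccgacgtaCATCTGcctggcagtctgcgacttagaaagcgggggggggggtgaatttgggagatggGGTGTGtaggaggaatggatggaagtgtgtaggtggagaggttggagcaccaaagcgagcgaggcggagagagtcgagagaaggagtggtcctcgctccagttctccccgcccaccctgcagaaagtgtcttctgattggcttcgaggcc
Neurod2: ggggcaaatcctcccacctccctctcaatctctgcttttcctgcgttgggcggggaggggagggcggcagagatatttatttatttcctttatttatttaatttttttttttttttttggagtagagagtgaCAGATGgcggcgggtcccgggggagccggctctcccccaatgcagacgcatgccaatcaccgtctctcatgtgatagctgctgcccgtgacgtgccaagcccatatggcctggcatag
Tbr1: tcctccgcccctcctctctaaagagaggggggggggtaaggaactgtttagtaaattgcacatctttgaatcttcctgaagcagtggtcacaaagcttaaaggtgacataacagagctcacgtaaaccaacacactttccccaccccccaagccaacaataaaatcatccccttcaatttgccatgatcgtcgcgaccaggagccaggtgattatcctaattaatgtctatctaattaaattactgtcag
The window of Nrgn holds CAGATG, read on the other strand as CATCTG, 208 bases before the start and GGTGTG 150 bases before it. That of Neurod2 holds CAGATG 118 bases before the start, and that of Tbr1 holds none of the 3. CAGATG was in 3 of the 10 windows and in 14.4% of all 32851 windows. The 3 were those of Nrgn, Neurod2 and 1 of the 2 starts of Slc17a6. Slc17a6, whose windows are not shown, had all pull-downs below all inputs, so the match was not limited to genes that rose. CAGCTG was in none of the 10 and in 13% of all, and GGTGTG was in 2 of the 10 (Nrgn and Neurod6) and in 16.3% of all. A match describes letters only.

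**Figure D2:**
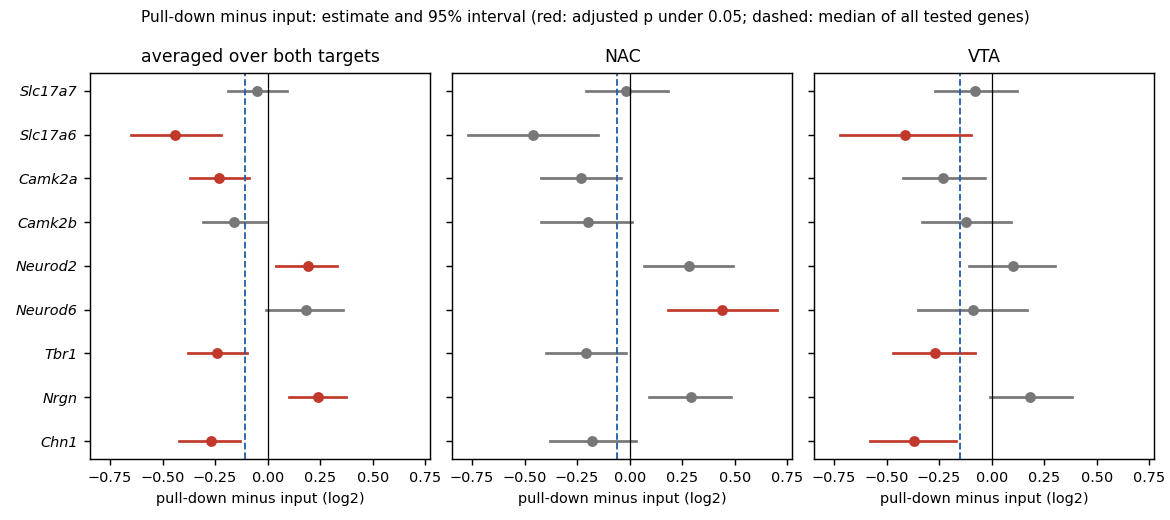
Difference between pull-down and input of each gene on the log2 scale, as the average of the targets and within each target, with 95% intervals; red marks a limma adjusted p under 0.05 and the dashed line the median of all tested genes. In the averaged panel Nrgn (0.24) and Neurod2 (0.19) lie right of 0 in red, and Slc17a6 (-0.44) lies farthest to the left.

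Within each target fewer genes passed. In cells labelled from NAC, 1 of the 9 genes was called, Neurod6, where 12.3% of all tested genes were, 4.34% higher and 8.01% lower. Neurod6 averaged 9.60 ± 0.12 in NAC pull-downs and 9.16 ± 0.11 in NAC inputs (log2, SD, n = 2 each). It rose by 0.44 (SE 0.12), a 1.36-fold change (limma adjusted p = 0.040), and the value was above that of 96.6% of tested genes. The call was lost without either NAC pull-down, either NAC input or either VTA input, where the value ran between 0.35 and 0.53. Slc17a6 had -0.46 (SE 0.14, limma adjusted p = 0.056), a value set by which NAC pull-down was kept. Without the first it was -0.69 and passed (limma adjusted p = 0.014), and without the second it was -0.23 and did not (limma adjusted p = 0.35). Nrgn had 0.29 (limma adjusted p = 0.057) and Neurod2 0.28 (limma adjusted p = 0.076). Both of these passed with each array centred, at 0.36 for Nrgn (limma adjusted p = 0.033) and 0.36 for Neurod2 (limma adjusted p = 0.038).

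In cells labelled from VTA, 3 of the 9 genes fell and none rose, where 31.3% of all tested genes were called, 5.44% higher and 25.9% lower. Chn1 averaged 10.71 ± 0.01 in VTA pull-downs and 11.08 ± 0.03 in VTA inputs, Slc17a6 6.52 ± 0.02 in VTA pull-downs and 6.93 ± 0.01 in VTA inputs, and Tbr1 8.93 ± 0.03 in VTA pull-downs and 9.20 ± 0.01 in VTA inputs (log2, SD, n = 2 each). The falls were 0.37 for Chn1 (SE 0.09, limma adjusted p = 0.015), 0.41 for Slc17a6 (SE 0.14, limma adjusted p = 0.046) and 0.27 for Tbr1 (SE 0.09, limma adjusted p = 0.039). None of these 3 passed with each array centred, at -0.18, -0.22 and -0.08, and Nrgn (0.38, limma adjusted p = 0.020) and Neurod2 (0.29, limma adjusted p = 0.049) were then higher. The call of Tbr1 was lost when any 1 of the 8 arrays was left out, that of Slc17a6 without either VTA pull-down, either NAC input or either VTA input, and that of Chn1 without either VTA input (0.35 and 0.40 in size). Neurod6 had -0.09 (95% interval -0.35 to 0.17, limma adjusted p = 0.58). The second Chn1 probe set had 0.29, opposite in direction to the brighter one, and did not pass (limma adjusted p = 0.1).

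Whether enrichment differed between the targets was tested directly, by subtracting the NAC enrichment of each gene, pull-down minus input, from its VTA enrichment. None of the 9 genes was called by limma, with or without a variance trend, and 0.0683% of all tested genes were called without it. Only 1 of the 9 had an unadjusted p under 0.05. That gene was Neurod6, with -0.53 (SE 0.17, 95% interval -0.90 to -0.16, limma adjusted p = 0.29). For Camk2a the difference was 0.00 (95% interval -0.27 to 0.28), for Tbr1 -0.06 (-0.34 to 0.21) and for Nrgn -0.10 (-0.38 to 0.17). The widest interval was that of Slc17a6, from -0.39 to 0.49.

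The comparison of VTA with NAC asked whether the 2 labelled populations differ in these transcripts, with the inputs as the background of the tissue. In the pull-downs none of the 9 genes was called by limma, while 2.47% of all tested genes were. Of the 9, 2 had an unadjusted p under 0.05. With a variance trend limma called 1 of the 9, and also more of all tested genes than without it. Slc17a7 had -0.22 (SE 0.09, limma adjusted p = 0.24) and Neurod6 -0.32 (SE 0.12, limma adjusted p = 0.20). Slc17a7 was the gene called with a variance trend. In the inputs none was called, while 1.5% of all tested genes were, and none had an unadjusted p under 0.05. With a variance trend 0 of the 9 were called in the inputs. Slc17a7 had -0.16 there (SE 0.09, limma adjusted p = 0.55) and Neurod6 0.21 (SE 0.12, limma adjusted p = 0.57).

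Slc17a7 was the only gene of the 9 whose 4 VTA arrays all lay below its 4 NAC arrays, at 11.51 to 11.61 with VTA and 11.73 to 11.79 with NAC. Of all tested genes 4.14% did not overlap between the targets, 2.56% with all VTA arrays below and 1.58% with all above. Microglial markers also differed between the targets. Over 13 tested microglial genes the mean log2 level was 7.36 to 7.48 in VTA pull-downs, against 7.74 to 7.76 in NAC pull-downs, and 7.86 to 7.89 in VTA inputs, against 8.31 to 8.32 in NAC inputs. Of these genes 5 were lower and 1 higher in the VTA pull-downs, and 6 were lower and 1 higher in the VTA inputs. Of 13 astrocyte genes 1, Gfap, was called lower in the VTA pull-downs, at -1.22 (limma adjusted p = 0.00011). The median of that list was 0.14 there, beside -0.04 over all tested genes. In the inputs Gfap had -0.84, and its difference of enrichment was not called (-0.38, limma adjusted p = 0.36). The part of these markers in the level of Slc17a7 was not tested.

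**Figure D3:**
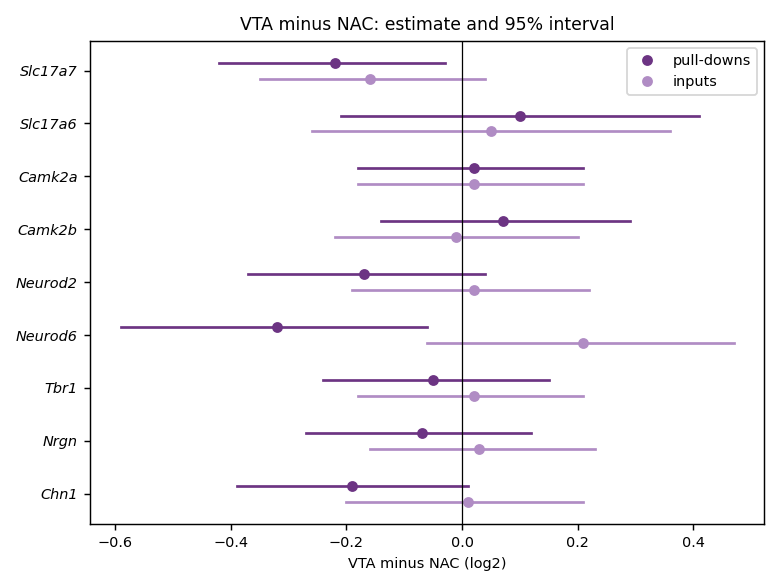
VTA minus NAC of each gene on the log2 scale, in pull-downs and in inputs, with 95% intervals. Slc17a7 lies left of 0 in both (-0.22 in pull-downs and -0.16 in inputs), and Neurod6 lies left of 0 in pull-downs (-0.32) and right of it in inputs (0.21).

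The order of the 4 group means differed between genes. For Camk2a, Camk2b, Slc17a6, Tbr1 and the brighter probe set of Chn1 the means of both pull-downs stood below those of both inputs. For Nrgn and Neurod2 both pull-downs stood above both inputs, as they did for the second Chn1 probe set. The inputs of the 2 targets were close neighbours for 7 of the 9 genes, with differences of -0.01 to 0.05, while Slc17a7 and Neurod6 had -0.16 and 0.21. Slc17a7 was ordered by target, with VTA pull-down and VTA input (11.52 and 11.60) below NAC pull-down and NAC input (11.74 and 11.76). Neurod6 was highest in NAC pull-downs, and its other 3 group means lay at 9.16 to 9.36. Among these the arrays of the VTA pull-down overlapped those of both inputs, while the VTA inputs lay just above the NAC inputs. The span from the highest to the lowest group mean ran between 0.20 for Camk2b and 0.51 for Slc17a6.

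Paralogs were also compared within each array, where a shift shared by all genes of the array cancels. A scaling that depends on level does not cancel, and Slc17a6 lay much nearer the array medians than Slc17a7. The difference Slc17a7 minus Slc17a6 was 5.17 ± 0.26 in pull-downs and 4.78 ± 0.13 in inputs (log2, SD, n = 4 each), and the 2 sets did not overlap. It was 0.39 larger in pull-downs, 0.45 with NAC and 0.33 with VTA. An exact permutation test, two-sided, gave p = 0.029, the smallest that 4 against 4 arrays allow. After Benjamini-Hochberg adjustment over 3 pairs the permutation p was 0.086. The test shuffled arrays without regard to target, so NAC and VTA arrays counted as exchangeable. The difference Camk2a minus Camk2b was 2.43 ± 0.09 in pull-downs and 2.50 ± 0.04 in inputs (n = 4 each, exact permutation p = 0.23, adjusted 0.34). Neurod2 minus Neurod6 was 0.74 ± 0.14 in pull-downs and 0.72 ± 0.18 in inputs (n = 4 each, exact permutation p = 0.97, adjusted 0.97), with changes of -0.16 with NAC and 0.19 with VTA. These differences compare changes and do not rank the genes by level.

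Other genes of the same pathways were taken from lists of their known functions. The share of all tested genes to set beside each list in the averaged comparison is 9.6% higher and 32% lower. Of 10 tested genes of glutamate uptake, glutamine transport and glutamate metabolism, 9 fell and none rose in the averaged comparison (median -0.28), and centring each array left 3 lower and none higher. The largest falls were those of Slc1a3 (-0.62) and Glud1 (-0.42). Slc1a3, a glutamate transporter of astrocytes, is also on the astrocyte list, and Slc1a2 and Glul of this list are likewise known from astrocytes. The vesicular gene of that list, Slc17a8, which codes for VGLUT3, lay below the array medians on all 8 arrays and was not tested.

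Of 15 tested genes of CaMKII and calmodulin signalling, 4 rose and 2 fell (median 0.03), and centring each array gave 7 higher and 1 lower. Pcp4, a small calmodulin-binding protein gene, rose by 0.38 (limma adjusted p = 0.0063), and Gap43, a growth-cone protein gene that like neurogranin binds calmodulin, by 0.33 (limma adjusted p = 0.0054). Camk2n2, which codes for an inhibitor of CaMKII, rose by 0.31 (limma adjusted p = 0.013). Camk1d, a related kinase gene, fell by 0.66 (limma adjusted p = 0.00042), and Rcan2, a regulator of calcineurin, fell by 0.27 (limma adjusted p = 0.0096). The fall of Camk1d and the rises of Pcp4, Gap43 and Camk2n2 were called under both other scalings, and Rcan2 was not called with each array centred (-0.13). The target with the larger difference varied: Pcp4 had 0.16 with VTA and 0.60 with NAC, and Gap43 had 0.50 with VTA and 0.17 with NAC, and the difference between targets was called for neither (limma adjusted p = 0.36 and 0.40). The other CaMKII subunit genes Camk2d (-0.17) and Camk2g (-0.02) and the second inhibitor gene Camk2n1 (0.09) did not pass.

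Of 15 tested transcription factors of the forebrain excitatory lineage, 1 rose and 4 fell (median 0.00). Over all tested genes 9.6% rose and 32% fell, so these counts are not read as particular to the list. Centring each array gave 3 higher and none lower, and with quantile normalization 2 were higher and 2 lower. Fezf2, a specifier of subcerebral neurons, rose by 0.24 (limma adjusted p = 0.017), with 0.51 for VTA and -0.03 for NAC, a difference between targets that was not called (0.54, limma adjusted p = 0.26). Among the falls, Zbtb20 had the largest at -0.30 (limma adjusted p = 0.015), followed by Nfia at -0.22 (limma adjusted p = 0.048). Neither fall was called with each array centred. Neurod1, a paralog of Neurod2 and Neurod6, lay below the array medians on all 8 arrays. Of 16 tested genes of chimaerin and Rac signalling, 1 rose and 4 fell (median -0.16), beside the same shares of all tested genes. These counts too are not read as particular to the list. Centring each array gave 2 higher and 1 lower. Rac3, a Rac GTPase gene, rose by 0.31 (limma adjusted p = 0.0095), and Arhgap32 (-0.35) and Epha4 (-0.30), an ephrin receptor gene, fell. Epha4 was not called with each array centred (-0.16), and had -0.53 with VTA and -0.07 with NAC, a difference that was not called (-0.46, limma adjusted p = 0.29). Chn2, the beta-chimaerin gene, had -0.19 (limma adjusted p = 0.13).

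**Figure D4:**
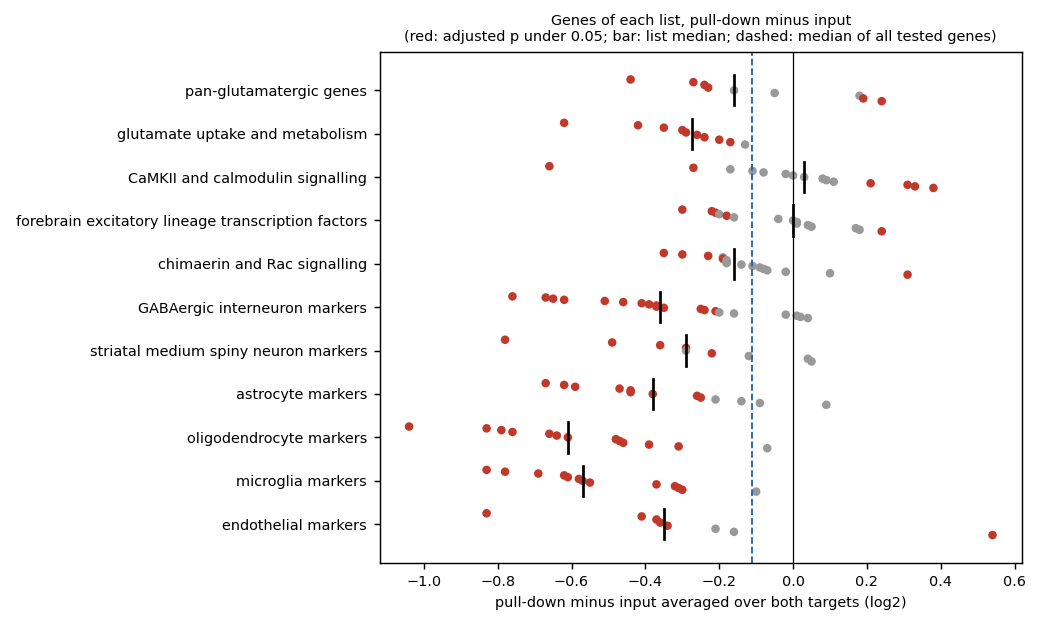
Each tested gene of each list, placed by its averaged difference between pull-down and input on the log2 scale; red marks a limma adjusted p under 0.05, the bar the list's median and the dashed line the median of all tested genes (-0.11). The median of the pan-glutamatergic genes (-0.16) lies nearer the dashed line than those of the interneuron (-0.36), oligodendrocyte (-0.61) and microglia (-0.57) markers.

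Markers of other cells moved in the same comparison, where 9.6% of all tested genes rose and 32% fell. Of 20 tested GABAergic interneuron genes 14 fell and none rose (median -0.36), and 10 were lower with each array centred. Gad2, the gene of an enzyme that makes GABA, fell by 0.76 (limma adjusted p = 0.00042) and Gad1 by 0.37 (limma adjusted p = 0.0068), and Slc32a1, the vesicular GABA transporter gene, had -0.16 (limma adjusted p = 0.11). Of 13 oligodendrocyte genes 12 fell (median -0.61), of 13 microglial genes 12 (median -0.57), of 13 astrocyte genes 9 (median -0.38) and of 9 striatal genes 5 (median -0.29). Of 8 endothelial genes 5 fell and 1 rose (median -0.35). With each array centred, the lower calls were 11 of the oligodendrocyte genes, 10 of the microglial, 7 of the astrocyte (and 1 higher), 3 of the striatal and 2 of the endothelial genes (and 1 higher). The mean log2 level of the interneuron list was 7.89 to 7.99 in NAC pull-downs and 8.04 to 8.10 in VTA pull-downs, against 8.30 to 8.31 in NAC inputs and 8.35 to 8.37 in VTA inputs. That of the 9 pan-glutamatergic genes was 10.06 to 10.14 in NAC pull-downs and 10.00 to 10.01 in VTA pull-downs, against 10.13 in both NAC inputs and 10.15 in both VTA inputs. The part of these markers in the values of the 9 genes was not tested.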

How the data were processed

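RNA of 8 mouse mPFC samples was measured on Affymetrix expression arrays. The deposited table holds log2 values for 41345 probe sets, which the authors made with Transcriptome Analysis Console, per the submitters' processing notes; the sources used here do not give its version, background correction or normalization. The values were used as deposited. Names came from the platform's annotation: 23521 had 1 gene symbol, 1814 several and 16010 none, and only the first were named (22180 genes, the brightest probe set of each). Testing was limited to genes above the median of named genes on 2 or more of the 8 arrays. limma 3.58.1 in R 4.3.3 fitted 4 group means to all 8 arrays (4 residual degrees of freedom, 6.07 added by moderation), with two-sided tests and Benjamini-Hochberg adjustment over 11712 genes at 0.05. The fit was also run on simulated data with independent noise on each array, and its outcome is not given here. That setting had no shift shared by all genes and no pairing of arrays, so it does not test the fit under these. Of the other lists, up to 2 largest rises and 2 largest falls past the threshold were to be named, plus paralogs and partners of the 9 genes. The 9 genes and the lists were chosen with earlier results of these data known. Alternatives were other scalings, no filter, a variance trend, all probe sets averaged, a replicate block and leaving out each array. The precision is limited by the number of arrays.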

Additional observations from a re-analysis of the deposited data

How the results depend on the processing

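In the comparison averaged over both targets, the 6 called genes became 3 with no filter on low values, where more genes are tested, and 4 to 5 when 1 array was left out. With NAC alone the 1 called gene became 3 with each array centred, 2 with quantile normalization, 0 with no filter, 5 with a variance trend and 0 to 1 when 1 array was left out. With VTA alone the 3 called genes became 1 with quantile normalization, 0 with no filter, 5 with a variance trend and 0 to 2 when 1 array was left out. With a variance trend 1 gene was called between the pull-downs, where 0 had been. With NAC or VTA alone, no count over all tested genes is given here for the other scalings, the variance trend or the replicate blocks. For the averaged comparison none is given with no filter or with a replicate block. The counts of called genes under these settings are therefore not read as particular to the list. The counts between the inputs and for the difference of enrichment were 0 under every alternative run. With the second probe set, Chn1 turned round, to 0.21 averaged over both targets and 0.29 with VTA, neither of which passed. The 2 arrays of a group share numbers with those of other groups. Deviations of same-numbered arrays correlated between -0.13 and 0.30 over genes. Pull-down and input of the same target had 0.30 with NAC, the highest of these values, and -0.02 with VTA. The numbers were not taken as pairs, but these correlations cannot show that the arrays are unpaired. With the number as a replicate block 6 genes were called averaged over both targets, 2 with NAC (Slc17a6 joined) and 3 with VTA. A block within each target, chosen after seeing the data, gave 6, 2 and 3. Over all tested genes, leaving out 1 array gave 3068 to 5065 calls averaged over both targets (4866 with all arrays), 149 to 1848 with NAC (1446), 415 to 3713 with VTA (3671), 151 to 335 between pull-downs (289), 100 to 206 between inputs (176) and 1 to 8 for the difference of enrichment (8). With no filter all 22180 named genes were tested. There were then 105 calls with NAC, 1907 with VTA, 113 between pull-downs and 1 for the difference of enrichment. A variance trend gave 532 between pull-downs and 30 for the difference of enrichment, which had 2 with quantile normalization and 1 with either replicate block. The cause of these shifts was not tested.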

Other observations

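The transcription factor genes Bcl11b and Fezf2, which mark subcerebral projection neurons of layer 5, were higher in VTA than in NAC pull-downs, by 0.73 (limma adjusted p = 0.0050) and 0.51 (limma adjusted p = 0.022). Both were also higher with each array centred (0.78 and 0.56) and with quantile normalization (0.76 and 0.54). Camk2n2, the CaMKII inhibitor gene, was lower in VTA than in NAC pull-downs, at -0.56 (limma adjusted p = 0.031), and was not called with each array centred (-0.51, limma adjusted p = 0.072) or with quantile normalization (-0.53, limma adjusted p = 0.058). The difference of enrichment between targets was not called for any of the 3, at 0.55 for Bcl11b, 0.54 for Fezf2 and -0.35 for Camk2n2.

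In VTA pull-downs against VTA inputs, Camk2d (-0.34, limma adjusted p = 0.028) and Chn2 (-0.43, limma adjusted p = 0.038), paralogs of genes described above, were lower. Neither was called with each array centred, at -0.14 for Camk2d and -0.23 for Chn2. In NAC pull-downs against NAC inputs they had 0.00 and 0.05, and the difference of enrichment was called for neither, at -0.34 for Camk2d (limma adjusted p = 0.39) and -0.47 for Chn2 (limma adjusted p = 0.38).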
